A study of Mus musculus with 6 samples.

Results

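The genes described here are 10 surface and secreted markers by which adipocyte progenitors are recognised: Pdgfra, Pdgfrb, Dpp4, Pi16, Ly6a, Cd34, Anxa3, F3, Dlk1 and Thy1. They were chosen by name as known progenitor markers, with earlier results of these data known. All 10 were found among the 54532 genes of the RNA-Seq tables. Epididymal fat, the visceral depot beside the epididymis, came from male C57BL/6J mice given either a normal diet (ND, 4.5% fat) or a high-fat diet (HFD, D12492, 60% fat), with 3 libraries per diet. Feeding started at 4 weeks of age and continued for 16 weeks, to an age of 20 weeks, and the libraries carried the label untreatment, with no transgene or deleted allele named. Total RNA of the whole tissue was sequenced, so fewer cells of a type and less RNA per cell cannot be told apart. The labels do not say whether each library came from a separate mouse, so the p-values measure the spread between these samples.

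White fat holds lipid-filled adipocytes beside a stromal fraction of vessels, immune cells, mesothelium and fibroblast-like progenitors. Progenitors carry the platelet-derived growth factor (PDGF) receptors and stem-cell antigens such as CD34 and LY6A. Within them, DPP4+ PI16+ interstitial progenitors, ICAM1+ committed preadipocytes and F3+ adipogenesis-regulatory cells are described as separate populations. None of the 10 genes is exclusive to progenitors in a whole tissue: endothelial cells also carry CD34 and LY6A, mural cells carry PDGFRB, and T cells carry THY1.

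Promoter sequences were present in the RefSeq table of GRCm38.p6 for 6 of the 10 genes (Pdgfra, Dpp4, Pi16, Cd34, F3 and Dlk1). The 250 bases before the start are shown for F3 and Cd34, the genes of these 6 for which every HFD value lay below every ND value. Capitals mark matches on either strand to the TATA box (TATAAA), the CCAAT box, the GC box (letters GGGCGG), the AP-1 site (letters TGACTCA), the E-box (letters CACGTG) or the EGR site (letters GCGTGGGCG), which do not contain one another. The F3 stretch lies at chr3:121723287-121723536 and the Cd34 stretch at chr1:194938571-194938820, both on the plus strand.
F3: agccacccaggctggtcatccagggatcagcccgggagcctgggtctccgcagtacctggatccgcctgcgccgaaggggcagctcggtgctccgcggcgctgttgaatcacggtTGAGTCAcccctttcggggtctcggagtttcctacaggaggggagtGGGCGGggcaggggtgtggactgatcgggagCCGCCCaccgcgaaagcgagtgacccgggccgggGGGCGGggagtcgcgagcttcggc
Cd34: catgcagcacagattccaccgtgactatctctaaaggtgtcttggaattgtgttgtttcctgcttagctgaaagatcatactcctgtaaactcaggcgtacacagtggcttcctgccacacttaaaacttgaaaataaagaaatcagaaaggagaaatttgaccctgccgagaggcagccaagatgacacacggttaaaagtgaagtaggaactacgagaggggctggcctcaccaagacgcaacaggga
The F3 promoter held the letters of an AP-1 site (TGACTCA, on the minus strand) from -135 to -129 relative to the start, a heptamer found in 4.46% of the 32851 promoters of this length. It also held GGGCGG, the core of a GC box, at -89 and -24 on the plus strand and at -58 on the minus strand, and 32.7% of promoters held this hexamer. None of these motifs was found in the Cd34 stretch, whereas TATAAA occurs in 12.4% of promoters, CCAAT in 33.9%, CACGTG in 6.02% and GCGTGGGCG in 0.536%. A match describes letters in this window and says nothing of binding.

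Count totals lay between 16996896 and 18859320 per library. Adipoq, the adiponectin gene that defines adipocytes, stood at 1031 to 3828 CPM (the count scaled to library size) in every library. The third library of each diet stood apart from the rest. The third ND library had 751 counts of Epcam, an epithelial adhesion molecule, against 0 to 4 in the others, and a summed level of 180.3 CPM over the 6 epithelial markers against 15.9 to 22.6. The third HFD library had the highest summed level of the 10 macrophage markers, at 8020 CPM against 3592 and 4608 in the other HFD libraries and 1608 to 1705 on ND. It also had the lowest summed levels of the 10 endothelial markers (804 CPM against 1408 to 1771 in the other 5 libraries) and of the 10 adipocyte markers (16704 CPM against 26530 to 48207).

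All 10 progenitor genes passed the filter on low counts, and 2 of them differed between the diets by edgeR's quasi-likelihood test at an adjusted p-value under 0.05. Anxa3 rose and F3 fell on HFD, while the other 8 genes were not called. Over all 15751 genes tested, 15.9% were called, 9.85% higher and 6.04% lower on HFD, so 1 higher and 1 lower among 10 lies near the background. The values of the diets did not overlap for 4 genes (Pdgfra, Cd34, Anxa3 and F3), and 40.9% of all genes tested showed no overlap. The median log2 fold change of the 10 genes was 0.03, beside 0.01 over all genes tested. With 1 library left out, the number of genes called in all was 474 to 1003 when any 1 of the ND libraries or the first HFD library was missing, 2095 without the third HFD library and 3940 without the second. In FPKM, the count scaled to gene length and library, mean levels on ND ran from 154 for Ly6a to 0.204 for Dlk1.

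**Figure D1:**
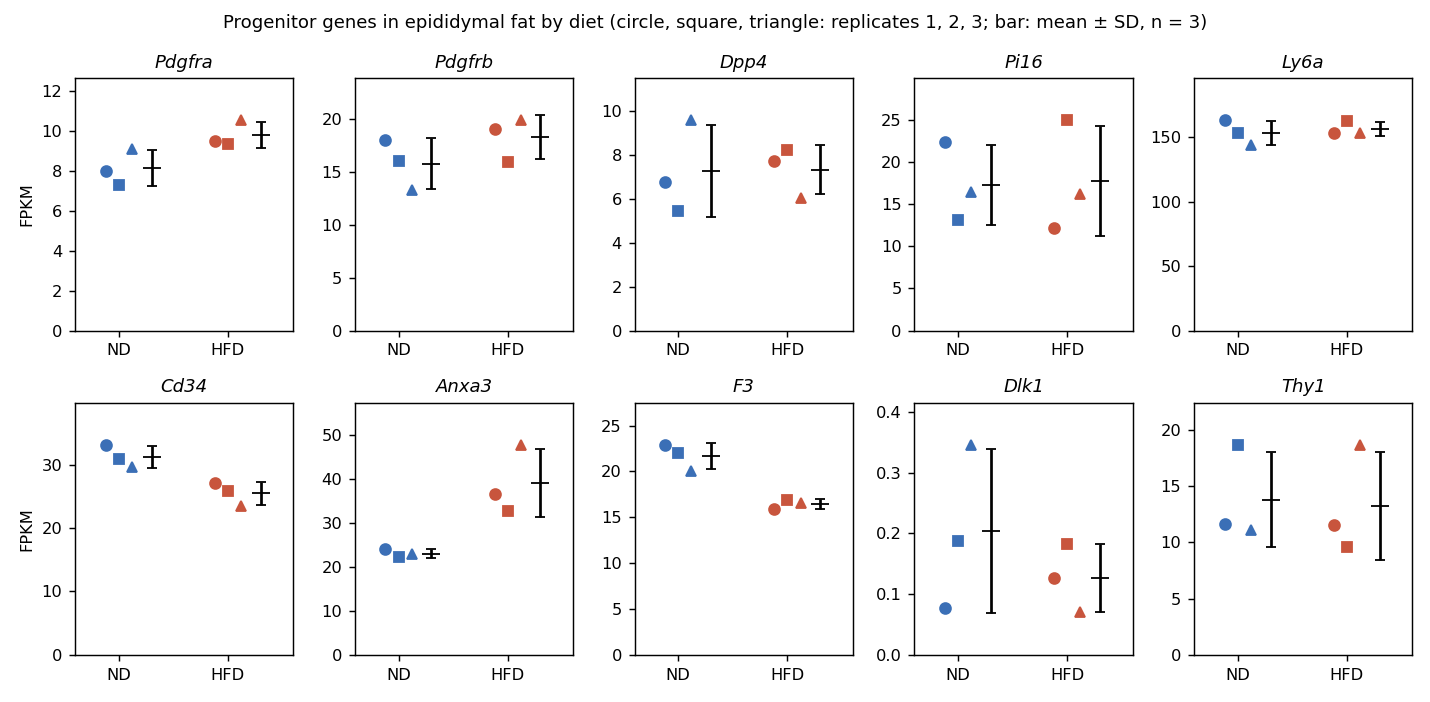
FPKM of the 10 progenitor genes (vertical axis, from 0) on ND (blue) and HFD (red), with symbols for replicates 1 to 3 and bars for the mean ± SD (n = 3). The Anxa3 values of HFD lie above and the F3 and Cd34 values below those of ND, whereas the Pi16 values span 12.1 to 24.9 on HFD and 13.1 to 22.4 on ND.

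The order of levels per length began with Ly6a on both diets, at 154 ± 9.36 FPKM (SD, n = 3) on ND and 157 ± 5.42 on HFD. On ND it was followed by Cd34 (31.2 ± 1.75), Anxa3 (23.0 ± 0.938), F3 (21.7 ± 1.44), Pi16 (17.3 ± 4.71), Pdgfrb (15.8 ± 2.37), Thy1 (13.8 ± 4.23), Pdgfra (8.12 ± 0.909) and Dpp4 (7.28 ± 2.10 FPKM). Among neighbours in this order, Anxa3 and F3 had overlapping values, as did F3, Pi16, Pdgfrb and Thy1 along the chain and Pdgfra with Dpp4, so those positions do not differ beyond the spread. On HFD, Anxa3 at 39.0 ± 7.78 FPKM stood second, above Cd34 at 25.5 ± 1.78, and F3 at 16.4 ± 0.507 came sixth, within the range of Pi16. Anxa3 and F3 had nearly equal levels per length on ND, with an Anxa3 to F3 ratio of 1.05, 1.01 and 1.14 in the 3 libraries. On HFD this ratio was 2.30, 1.94 and 2.88, above every ND value.

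**Figure D2:**
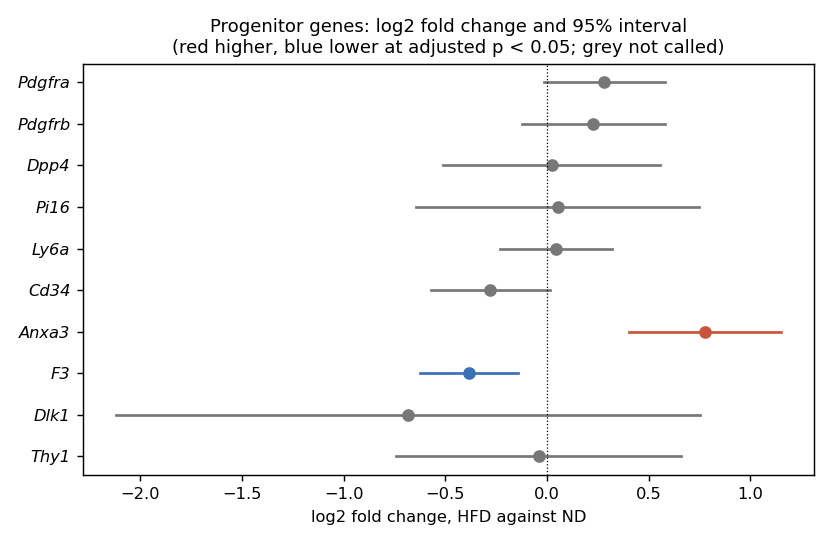
Log2 fold change of HFD against ND (horizontal axis) with its 95% interval for each progenitor gene from edgeR's quasi-likelihood fit (n = 3 per diet). The intervals of Anxa3 (0.40 to 1.151) and F3 (-0.62 to -0.14) leave out 0, and that of Dlk1 (-2.12 to 0.75) is the widest.

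The PDGF receptors bind dimeric PDGF ligands at the cell surface, and PDGFRA marks most fibroblast-like progenitors. Pdgfra (ENSMUSG00000029231, chromosome 5 of GRCm38 from 75152292 to 75198215) had 78.5, 71.6 and 90.3 CPM on ND and 94.6, 93.0 and 105 on HFD. Every HFD value was above every ND value, with the third ND library close below the HFD range. The log2 fold change was 0.28 (SE 0.13, 95% interval -0.02 to 0.58, adjusted p = 0.168), so the difference did not pass. Pdgfrb (ENSMUSG00000024620, chromosome 18 from 61045150 to 61085061), the receptor of mural cells and perivascular progenitors, had 96.6, 86.0 and 72.0 CPM on ND and 104, 86.5 and 108 on HFD. The diets overlapped at the second HFD library, and the log2 fold change was 0.23 (SE 0.15, adjusted p = 0.325, edgeR's quasi-likelihood test). Beside Pdgfrb, the 10 mural markers had summed levels of 1332 to 1557 CPM on ND and 623 to 1209 on HFD. Their log2 fold changes were below 0 in 10 of 10. Only 1 of them, Rgs5, was called lower, beside 6.04% of all genes tested. It had a log2 fold change of -1.16 and was called in 2 of 6 fits with 1 library left out. The part of mural cells in the Pdgfrb values was not tested.

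None of the 5 genes listed as PDGF ligands or receptor-like partners was called, beside 15.9% of all genes tested. Their median log2 fold change was 0.21. Pdgfc, a ligand of PDGFRA, had 24.4, 33.7 and 29.3 CPM on ND and 22.4, 21.8 and 17.7 on HFD. All HFD values lay below those of ND, at a log2 fold change of -0.50 (SE 0.16, adjusted p = 0.0779 by edgeR). Pdgfa, the other main PDGFRA ligand, had a log2 fold change of 0.48 and Pdgfb, the endothelial ligand of PDGFRB, of 0.23. Pdgfrl, a PDGF receptor-like gene, had counts of 114, 81 and 109 on ND and 14, 40 and 58 on HFD. Its log2 fold change of -1.32 did not pass (SE 0.49, adjusted p = 0.108 by edgeR). With DESeq2, Pdgfc (adjusted p = 0.0429) and Pdgfrl (0.0343) were called lower.

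Dpp4 and Pi16 mark the interstitial progenitors at the head of the adipocyte lineage, DPP4 being a membrane dipeptidase and PI16 a peptidase-inhibitor family protein. Dpp4 (ENSMUSG00000035000, chromosome 2 from 62330073 to 62412231) had 42.0, 33.8 and 59.99 CPM on ND and 48.5, 51.6 and 38.2 on HFD. The lowest and the highest value both belonged to ND, the highest to the library with the Epcam counts. The log2 fold change was 0.02 (SE 0.23, 95% interval -0.51 to 0.55, adjusted p = 0.957), and without the third ND library it was 0.25 (adjusted p = 0.430, edgeR). Pi16 (ENSMUSG00000024011, chromosome 17 from 29317680 to 29330593) had 87.4, 51.0 and 64.8 CPM on ND and 48.0, 98.7 and 64.3 on HFD. These values spread widely within each diet, with a coefficient of variation of 27.2% on ND and 36.8% on HFD, against 5.58% and 3.34% for Ly6a. The log2 fold change of Pi16 was 0.05 (SE 0.30, 95% interval -0.64 to 0.75), an interval that leaves room for changes of either sign. The Pi16 to Dpp4 ratio in FPKM was 3.30, 2.39 and 1.71 on ND and 1.57, 3.04 and 2.67 on HFD, again overlapping.

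Of the 14 tested genes of the interstitial progenitor list, 4 rose and 0 fell, beside 9.85% higher and 6.04% lower over all genes tested, with a median log2 fold change of -0.04. Pcolce2, an enhancer of procollagen processing, had 28.0, 22.3 and 22.4 CPM on ND and 54.1, 85.2 and 50.3 on HFD. It rose 2.61-fold (log2 fold change 1.38, SE 0.22, adjusted p = 0.0119, edgeR), with no overlap between the diets, and was called in 4 of 6 fits with 1 library left out. Gfpt2, a rate-limiting enzyme of the hexosamine pathway, rose from 19.3 ± 3.72 to 40.7 ± 4.77 CPM (SD, n = 3; log2 fold change 1.07, adjusted p = 0.0119 by edgeR) and was called in 5 of these 6 fits. Emilin2, an elastic-fibre glycoprotein, rose 1.77-fold (log2 fold change 0.82, adjusted p = 0.0164), and Creb5, a CREB-family transcription factor, 1.59-fold (0.66, adjusted p = 0.0251), each called in 2 of the 6. With 1 library left out at a time, between 1 and 4 genes of the list were called higher, with 1 called when any ND library was left out and 2 without the first HFD library, and Efhd1 was called lower without the second HFD library. Bmp7, a bone morphogenetic protein in the same list, had counts of 55, 18 and 189 under ND against 20, 29 and 25 on HFD, and its highest value was in the third ND library. Akr1c18, with low counts of 16, 22 and 10 on ND and 5, 4 and 1 on HFD, was not tested. Its values were lower on HFD without overlap.

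The 8 genes of the committed preadipocyte list, which include late adipogenic genes shared with adipocytes, gave 1 higher and 0 lower call. Over all genes tested, 9.85% were called higher and 6.04% lower. Icam1, the adhesion molecule that marks these cells and also activated endothelium and leukocytes, had 26.1, 21.6 and 19.4 CPM on ND and 39.3, 30.1 and 42.3 on HFD (log2 fold change 0.74, SE 0.17, adjusted p = 0.0318, edgeR), and was called in 1 of 6 fits with 1 library left out. Cebpa, a driver of terminal adipogenesis, had a mean of 1319 ± 185 CPM on ND and 727 ± 230 on HFD (SD, n = 3), a log2 fold change of -0.86 that did not pass (adjusted p = 0.0652). Pparg, the master regulator of adipocyte formation, gave a log2 fold change of -0.63 (with adjusted p = 0.149). Cd36, a fatty acid transporter, gave a log2 fold change of 0.60 (with adjusted p = 0.113). With DESeq2 in place of edgeR, Cebpa (adjusted p = 0.0056) and Cd36 (0.00346) passed, whereas Pparg (0.0816) did not. The summed adipocyte marker level was 38447 to 48207 CPM on ND and 16704 to 42104 on HFD, and its part in the Cebpa and Pparg values was not tested.

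**Figure D3:**
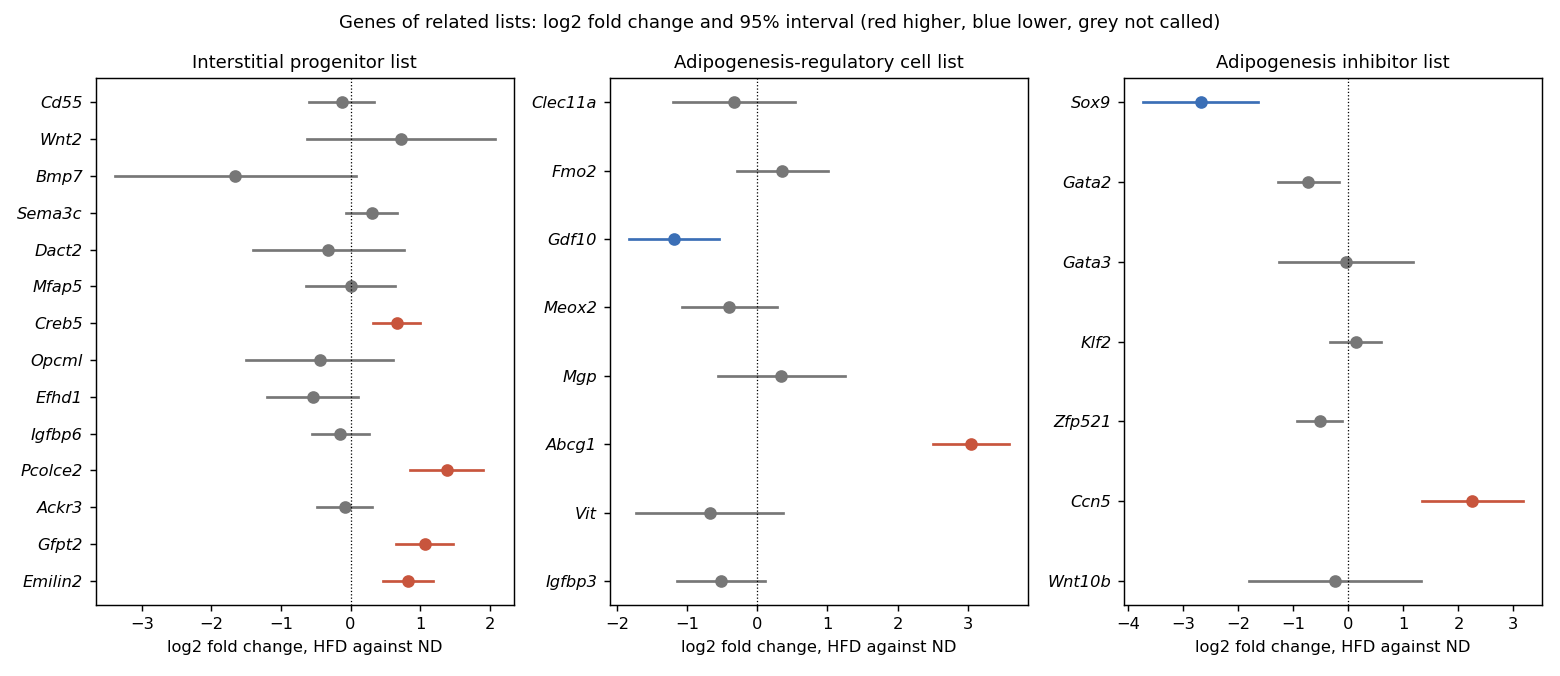
Log2 fold change of HFD against ND with its 95% interval (horizontal axis, edgeR, n = 3 per diet) for the tested genes of the interstitial progenitor, adipogenesis-regulatory cell and adipogenesis inhibitor lists. Pcolce2, Gfpt2, Emilin2 and Creb5 lie above 0 in the first panel, Abcg1 at 3.05 and Gdf10 at -1.18 in the second, and Ccn5 at 2.25 and Sox9 at -2.69 in the third.

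Anxa3 encodes a calcium-dependent phospholipid-binding protein that has served as a surface marker of progenitors in fat. Anxa3 (ENSMUSG00000029484, chromosome 5 from 96793339 to 96845966) had 85.8, 79.1 and 82.4 CPM on ND and 132, 119 and 173 on HFD. Every HFD value was above every ND value, and the highest came from the library with the highest macrophage sum. It rose 1.71-fold, at a log2 fold change of 0.78 (SE 0.16, 95% interval 0.40 to 1.151, adjusted p = 0.0217, edgeR's quasi-likelihood test). Without the third HFD library the log2 fold change was 0.59 and the call held (adjusted p = 0.0165), as it did without the second (0.89, adjusted p = 0.00774). The call was lost when any 1 of the other 4 libraries was left out, where the log2 fold change was 0.80, 0.75 and 0.74 without each ND library in turn and 0.79 without the first HFD library (adjusted p from 0.0703 to 0.0829). Among the macrophage markers, 8 of 10 were called higher, beside 9.85% of all genes tested, with a median log2 fold change of 1.65. The number was 3 without the first ND, second ND or first HFD library, 4 without the third ND library, 8 without the third HFD library and 9 without the second. None of these markers was at 0 counts in every library, and their part in the Anxa3 values was not tested.

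Of the other 11 annexin genes 9 were tested, and 5 were called higher and 1 lower, beside 9.85% higher and 6.04% lower over all genes tested, with a median log2 fold change of 0.67. Anxa1, whose product limits leukocyte recruitment, had 355, 383 and 300 CPM on ND and 1300, 1125 and 1954 on HFD. It rose 4.22-fold (log2 fold change 2.07, SE 0.26, adjusted p = 0.00652) and was called in 6 of 6 fits with 1 library left out. Anxa5, the phosphatidylserine-binding annexin, rose 2.45-fold (log2 fold change 1.29, adjusted p = 0.00675) and likewise passed in 6 of 6. Anxa4 rose 3.12-fold (1.64, adjusted p = 0.0239), with the third HFD library highest at 319 CPM against 115 and 168. Anxa2 (1.09, adjusted p = 0.0266) and Anxa11 (0.67, adjusted p = 0.0468) were the other 2 called higher. Anxa8, by contrast, had 16.6, 26.0 and 21.6 CPM on ND and 8.29, 11.1 and 5.06 on HFD and fell by 1.39 on the log2 scale (adjusted p = 0.0260), called in 2 of 6 fits with 1 library left out. The number called higher was 4 with the count total as the only scaling and 2 when any 1 of the ND libraries or the first HFD library was left out.

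**Figure D4:**
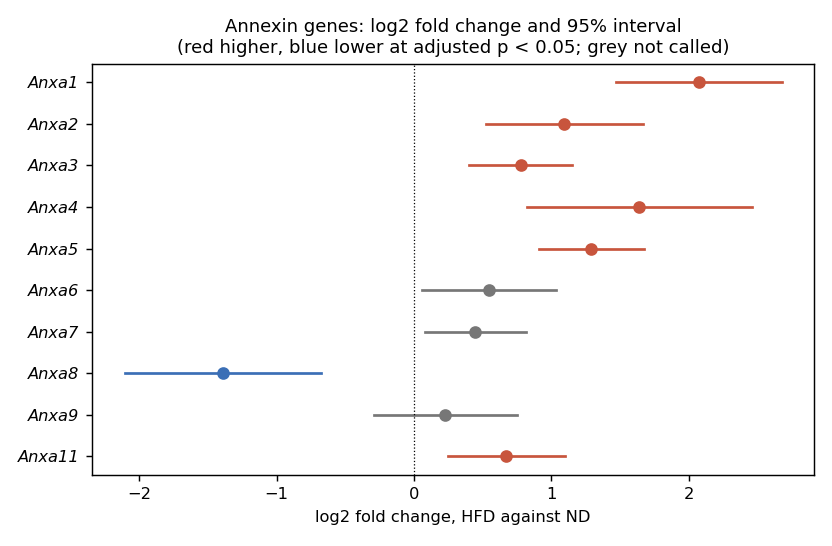
Log2 fold change of HFD against ND with its 95% interval (horizontal axis, edgeR, n = 3 per diet) for Anxa3 and the other 9 annexin genes tested. Anxa3 at 0.78 lies between Anxa11 at 0.67 and Anxa2 at 1.09, and Anxa8 at -1.39 is the only annexin below 0.

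Ly6a, Cd34 and Thy1 encode surface antigens by which progenitors are sorted: LY6A (SCA-1) and THY1 (CD90) are small proteins anchored in the membrane by a lipid, and CD34 is a sialomucin. Ly6a (ENSMUSG00000075602, chromosome 15 from 74994877 to 74998031) had 193, 181 and 173 CPM on ND and 184, 195 and 185 on HFD. All HFD values but the second lay inside the ND range, and the log2 fold change was 0.05 (SE 0.12, 95% interval -0.23 to 0.32, adjusted p = 0.819, edgeR). Of the distinct 50-base stretches of Ly6a transcripts, 18.97% also occur in transcripts of Ly6c1, Ly6c2, Ly6i and I830127L07Rik, its near copies. How reads from these stretches were counted was not examined, so their effect on the Ly6a level is not known. None of 5 tested Ly6 family genes was called, beside 15.9% of all genes tested. Ly6c1, an endothelial and monocyte antigen, had 189, 188 and 204 CPM on ND and 204, 202 and 170 on HFD, and Ly6e gave a log2 fold change of -0.34 (with adjusted p = 0.281).

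Cd34 (ENSMUSG00000016494, chromosome 1 from 194938819 to 194961279) had 237, 221 and 214 CPM on ND and 196, 187 and 171 on HFD. Every HFD value lay below every ND value. The log2 fold change was -0.28 (SE 0.12, 95% interval -0.57 to 0.01, adjusted p = 0.162 by edgeR's quasi-likelihood test), so the difference did not pass. In FPKM the Ly6a to Cd34 ratio was 4.93, 4.95 and 4.87 on ND and 5.69, 6.30 and 6.53 on HFD, with no overlap. Podxl, the CD34-family sialomucin of endothelium, had 118, 98.7 and 101 CPM on ND and 68.6, 81.4 and 32.0 on HFD (log2 fold change -0.80, SE 0.31, adjusted p = 0.123), and Podxl2 gave a log2 fold change of 0.86 (with adjusted p = 0.171). All 10 endothelial markers had log2 fold changes below 0 and 0 were called, beside 15.9% of all genes tested. Their summed levels were 1408 to 1771 CPM on ND and 804 to 1498 on HFD. Without the third HFD library, the lowest in endothelial markers, the Cd34 log2 fold change was -0.24 (adjusted p = 0.254), and the part of endothelial cells was not tested. A gene on the opposite strand, Gm16897, overlaps 148 bases of Cd34 exons and had 17 to 31 counts per library, beside 2973 to 4389 for Cd34.

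Thy1 (ENSMUSG00000032011, chromosome 9 from 44043384 to 44048579) had 34.1, 54.8 and 32.9 CPM on ND and 34.4, 28.4 and 55.7 on HFD. A single library of each diet stood above the rest, the second on ND and the third on HFD, and the ranges overlapped. The log2 fold change was -0.04 (SE 0.30, 95% interval -0.74 to 0.66, adjusted p = 0.939). The 9 markers of T cells, another source of Thy1, had summed levels of 26.7 to 30.0 CPM on ND and 28.2 to 35.2 on HFD. None of these markers was called, beside 15.9% of all genes tested. The part of T cells in the Thy1 values was not tested. Cd3e, a subunit of the T cell receptor complex, ranged from 7 to 19 counts on the normal diet against 18 to 38 on HFD. Its log2 fold change of 1.02 did not pass (adjusted p = 0.161, edgeR). Cd28 (log2 fold change 1.19, adjusted p = 0.0850) and Cd8a (0.72, adjusted p = 0.290) did not pass by edgeR. The values of both lay higher on HFD without overlap, and Cd28 was called higher with DESeq2 (adjusted p = 0.0395). The subunit genes Cd3d, Cd3g and Cd247 had log2 fold changes of -0.21, -0.20 and -0.49. Over the 9 T cell markers, 6 log2 fold changes were above 0 and 3 below.

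F3 encodes tissue factor, the membrane receptor that starts coagulation by binding factor VII, and marks the adipogenesis-regulatory cells of fat, which are described as restraining adipocyte formation by neighbours. F3 (ENSMUSG00000028128, chromosome 3 from 121723537 to 121735048) had 56.7, 54.5 and 50.3 CPM on ND and 39.9, 42.4 and 41.8 on HFD. The HFD values lay close together and below all ND values. F3 was 1.30-fold lower on HFD, with a log2 fold change of -0.38 (SE 0.10, 95% interval -0.62 to -0.14, adjusted p = 0.0462, edgeR's quasi-likelihood test). The call was close to the threshold: it was lost without each of the 6 libraries in turn, at log2 fold changes from -0.46 to -0.35 and adjusted p-values from 0.0542 to 0.168, and also with the count total as the only scaling (0.0555), without the filter on low counts (0.113) and with limma on unfiltered FPKM values (0.0666). It held with DESeq2 (adjusted p = 0.00871). No other gene overlapped F3 exons or shared a 50-base stretch with them.

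Of the 8 other genes in the adipogenesis-regulatory list, 1 rose and 1 fell, beside 9.85% higher and 6.04% lower over all genes tested. The median log2 fold change of the list was -0.37. Abcg1, a cholesterol exporter that macrophages also use, had 14.7, 14.9 and 16.2 CPM on ND and 118, 93.1 and 169 on HFD. It rose 8.29-fold (log2 fold change 3.05, SE 0.23, adjusted p = 0.00271) and followed the order of the macrophage sums among the HFD libraries. Gdf10, a TGF-beta family ligand, had 81.1, 42.0 and 71.6 CPM on ND and 33.6, 30.7 and 21.5 on HFD and fell by 1.18 on the log2 scale (SE 0.28, adjusted p = 0.0303, edgeR). Its call held in 2 of 6 fits with 1 library left out, those without the second ND or the second HFD library. Igfbp3, an insulin-like growth factor binding protein, gave a log2 fold change of -0.52 (with adjusted p = 0.223), and Vit, an extracellular matrix gene, of -0.68 (adjusted p = 0.325).

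Of the 6 genes of coagulation and its control listed with F3, 5 were called, 3 higher and 2 lower, beside 15.9% called over all genes tested. With 1 library left out, 2 to 4 were higher and 1 to 2 lower. F7, factor VII, had counts of 4, 6 and 18 under ND against 1079, 549 and 1772 on HFD. It rose 133-fold in mean CPM (log2 fold change 7.0, SE 0.62, adjusted p = 0.00344), from a level near the floor of detection on ND. F10, the substrate of the tissue factor and factor VII complex, rose 12.9-fold, with counts of 34, 21 and 37 on ND and 285, 247 and 564 on HFD (log2 fold change 3.67, adjusted p = 0.00549). Both were called in 6 of 6 fits with 1 library left out, and for both the third HFD library, with the highest macrophage sum, was highest. The macrophage marker Cd68 showed the same order among the HFD libraries, at 380, 196 and 666 CPM, and the part of macrophages in these values was not tested.

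The other genes of this list moved in both directions. Tfpi, the main inhibitor of the tissue factor complex, had 67.6, 57.4 and 59.3 CPM on ND and 25.7, 34.1 and 29.6 on HFD. It fell by 1.05 on the log2 scale (SE 0.14, adjusted p = 0.00768) and was called in 6 of 6 fits with 1 library left out. Thbd, thrombomodulin of the endothelial surface, had 483, 269 and 326 CPM on ND and 120, 155 and 88.4 on HFD and fell by 1.57 on the log2 scale (adjusted p = 0.0156, called in 4 of 6). Tfpi2, a related protease inhibitor of the matrix, rose 2.69-fold (log2 fold change 1.42, adjusted p = 0.0118, called in 3 of 6). Procr, the endothelial protein C receptor, had a log2 fold change of 0.78 that did not pass (adjusted p = 0.101, edgeR).

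**Figure D5:**
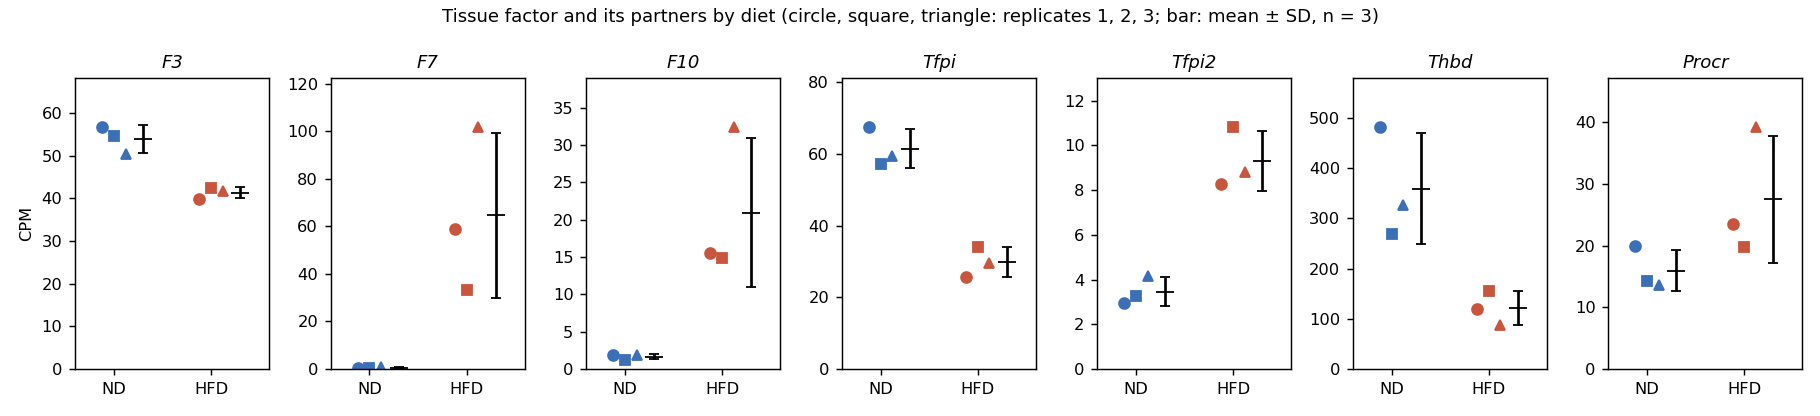
CPM (vertical axis, from 0 and scaled for each gene) of F3 and 6 genes of coagulation and its control on ND (blue) and HFD (red), with symbols for replicates 1 to 3 and bars for the mean ± SD (n = 3). F3 lies between 39.9 and 42.4 CPM on HFD and 50.3 and 56.7 on ND, F7 and F10 are near 0 on ND, and Tfpi and Thbd are lower on HFD.

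Dlk1 encodes PREF-1, a membrane protein that holds preadipocytes undifferentiated and is widely used as their marker, from an imprinted locus on chromosome 12. Dlk1 (ENSMUSG00000040856, 109452823 to 109463336) was hardly detected, at 8, 18 and 39 counts on the normal diet against 13, 17 and 7 on HFD. The third ND library was highest, and the ranges overlapped. The log2 fold change was -0.68 (SE 0.61, 95% interval -2.12 to 0.75, adjusted p = 0.469), and without the third ND library -0.07 (adjusted p = 0.949, edgeR). None of 3 tested non-coding RNAs of the same locus was called, beside 15.9% of all genes tested. Meg3 had 20.2, 22.4 and 35.6 CPM on ND and 33.7, 34.2 and 51.8 on HFD (log2 fold change 0.61, SE 0.27, adjusted p = 0.154). Rian had a log2 fold change of 0.35 and Mirg of 0.79, and Rtl1, with 0 to 8 counts per library, was not tested.

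Other inhibitors of adipogenesis gave 1 higher and 1 lower call among 7 genes tested, beside 9.85% higher and 6.04% lower over all genes tested. The median log2 fold change of the list was -0.25. Sox9, a transcription factor that keeps progenitors undifferentiated and is also used by epithelia, had counts of 262, 121 and 456 on ND and 44, 29 and 46 on HFD. It fell by 2.69 on the log2 scale (SE 0.44, adjusted p = 0.0123), and without the third ND library, the highest, by 2.26 (adjusted p = 0.0364), while the call was lost without the first library of either diet. Ccn5, also named Wisp2, a WNT1-induced secreted protein, had 18.4, 5.85 and 8.41 CPM on ND and 54.3, 57.1 and 44.9 on HFD, and rose 4.78-fold (log2 fold change 2.25, SE 0.39, adjusted p = 0.0139). Its call was lost without the third ND library (adjusted p = 0.0563) and without the first HFD library. Gata2 and Zfp521, transcription factors that restrain adipocyte differentiation, had log2 fold changes of -0.73 (adjusted p = 0.0768) and -0.52 (adjusted p = 0.0835), and neither passed by edgeR. With DESeq2 both were called lower (adjusted p = 0.0310 and 0.0470).

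DPP4 belongs to a family of prolyl peptidases, and of its 5 tested relatives 1 was called higher, beside 9.85% of all genes tested. Dpp7, a lysosomal dipeptidase, had 17.0, 22.0 and 17.6 CPM on ND and 46.7, 44.5 and 77.4 on HFD and rose 2.98-fold (log2 fold change 1.57, SE 0.24, adjusted p = 0.0103, called in 5 of 6 fits with 1 library left out). Prep gave a log2 fold change of 0.52 (with adjusted p = 0.0872) and Dpp8 of 0.27 (adjusted p = 0.131). Fap, the nearest relative of Dpp4 and a fibroblast marker, had 11.7, 17.4 and 12.8 CPM on ND and 16.4, 11.7 and 20.5 on HFD, with overlapping diets.

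The mean level of stromal fibroblast genes served as a second scale on which to read the progenitor genes. None of the 12 genes, which include collagens, Dcn, Lum and Fbn1, was called, beside 15.9% of all genes tested. Their median log2 fold change was -0.02. Fitted values of the members ran from -1.11 for Mfap4 to 0.44 for Lum. The mean log2 CPM of the list, with 0.5 added to each CPM, was 8.26, 8.52 and 8.43 on ND and 8.02, 7.93 and 8.59 on HFD. The list mean thus moved by -0.22 from ND to HFD, with overlapping diets. That shift raises the difference of every progenitor gene on this scale by 0.22. Relative to the list mean, Anxa3 stood at -1.83, -2.21 and -2.05 on ND and -0.97, -1.04 and -1.15 on HFD. The difference was 0.98, with no overlap. Pdgfra stood at -1.95, -2.35 and -1.92 on ND and -1.45, -1.39 and -1.87 on HFD. F3 stood at -2.42, -2.74 and -2.76 on ND and -2.68, -2.51 and -3.19 on HFD, so that on this scale the diets overlapped, with a difference of -0.15. Cd34 likewise overlapped, with a difference of -0.06. The separation of the diets for Anxa3 and Pdgfra was therefore present on both scales, and that for F3 and Cd34 only in CPM. For Pdgfra it was narrow on the stromal scale, with the third HFD library at -1.87 just above the third ND library at -1.92.

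The 8 mesothelial markers had 0 calls, beside 15.9% of all genes tested. Their summed levels were 237 to 344 CPM on ND and 168 to 302 on HFD. Of 4 tested Schwann cell markers, 1 was called lower, beside 6.04% of all genes tested. This was Ncam1, from 21, 23 and 48 counts to 6, 5 and 8, and its call held in 2 of 6 fits with 1 library left out. Of the 10 adipocyte markers, 1 was called higher and 2 lower, beside 9.85% higher and 6.04% lower over all genes tested. Lep was higher (log2 fold change 1.38), and Adrb3 (-1.84) and Retn (-2.05) were lower. None of the list was called when any 1 of the ND libraries or the first HFD library was left out, 5 were lower without the second HFD library, and 0 were lower without the filter on low counts.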

How the data were processed

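RNA-Seq of epididymal fat was available for 3 ND and 3 HFD libraries, grouped by the diet in the labels. The authors deposited raw counts per gene and FPKM values for the same 54532 identifiers, of which 54495 were found in GENCODE M21, the source of names and coordinates. The paper gives GRCm38 with TopHat and Cufflinks, while the submitters' processing notes list CASAVA 1.8, fastp, HISAT2 2.0.5, featureCounts 1.5.0-p3, DESeq2 1.20.0 and a human build. The mouse build was used here. The strand setting of the counting is not given in the sources used here, and the library kit does not mark strand, so reads from genes on opposite strands cannot be told apart.

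Counts were tested with the quasi-likelihood F-test of edgeR (version 4.0.16 under R 4.3.3, robust fit, TMM, filterByExpr, diet as the only factor) with Benjamini-Hochberg adjustment over all 15751 genes and a threshold of 0.05. Standard errors and 95% intervals were derived from the F statistic. CPM values use count totals scaled by TMM. An exact permutation test of 3 against 3 libraries allows no p under 0.1 and was not used. The alternatives were DESeq2 1.42.0, other scalings and filters, limma 3.58.1 on log2(FPKM + 1), the replicate number as a block and each library left out. The floor of detection was 3 counts, which covers counting error only. The edgeR test was also run on simulated counts with known changes. It recovered 40 of 97 genes changed by 1 on the log2 scale and 83 of 96 changed by 2, with 5 false calls. A gene that was not called may therefore still differ between the diets.

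The 10 genes and the lists were chosen with earlier results of these data known. The rule was to name from each list up to 4 genes with the smallest p, together with genes that define a cell type. It was not followed in full. In the macrophage, mural, endothelial and mesothelial lists most or all of these genes are left unnamed. The Ly6, DPP4, adipocyte, Schwann and epithelial lists also leave some unnamed. Fap, Anxa2, Anxa11, Thbd, Procr, Bmp7 and any other list gene beyond these were named after their values were seen.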

Additional observations from a re-analysis of the deposited data

How the results depend on the processing

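Anxa3 was called higher in the main comparison and under 8 of 9 alternatives that kept all 6 libraries. F3 was called lower under 5 of these 9: with 0 progenitor genes lower under the count total as the only scaling (adjusted p = 0.0555 for F3), without the filter (0.113), with limma on unfiltered log2(FPKM + 1) (0.0666) and with the replicate block (0.0920, log2 fold change -0.38). The unfiltered limma fit also gave 0 higher (adjusted p = 0.0653 for Anxa3). With 1 library left out, the number higher was 0 to 1 and the number lower 0 to 0. In these fits the log2 fold change ranged from -0.15 to 0.25 for Dpp4, -0.27 to 0.28 for Pi16, -0.0236 to 0.0860 for Ly6a and -0.39 to 0.24 for Thy1, changing sign in each. Dpp4 also changed sign with the count total only, at -0.00113. The causes were not tested.

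Over all genes, 2504 were called in the main fit, 3961 with DESeq2, 649 with unfiltered limma, 1886 with the replicate block and 474 to 3940 with 1 library left out. Among the cell type lists, DESeq2 called 5 adipocyte, 4 mural, 2 stromal fibroblast and 1 endothelial marker lower, and 1 T cell marker higher. Same-numbered libraries did not deviate together (correlations -0.0858, -0.0556 and -0.00532), so the numbers were not taken as pairs. The count of 3 libraries per diet limits the precision for Pi16, Thy1, Dpp4 and Dlk1, whose intervals are the widest.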

Other observations

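For each progenitor gene the protein-coding genes with the most similar profile were sought, by the root mean square difference of log2 CPM centred on each gene's mean over the 6 libraries. For Anxa3 these were Apaf1 (0.0339), an adaptor of the apoptosome, Frmd8 (0.0357) and Washc4 (0.0391), with log2 fold changes of 0.78, 0.77 and 0.82. For F3 they were Oat (0.0292), ornithine aminotransferase, Pank2 (0.0301), a pantothenate kinase, and Plcb3 (0.0370), a phospholipase C, with log2 fold changes of -0.38, -0.33 and -0.36. For Cd34 the closest named enzyme was Dgka (0.0367), a diacylglycerol kinase, at -0.29, and for Pdgfra the closest gene was Pias1 (0.0251), a SUMO ligase, at 0.30. The Thy1 profile, highest in ND2 and HFD3, was closest to that of Loxl2 (0.0873), a collagen crosslinking enzyme, Rdh11 (0.106) and Mfap5 (0.114), a microfibril gene of the interstitial progenitor list. The profiles of Pi16 and Dlk1 had no such close match, the nearest being Ackr2 (0.173) and Vangl2 (0.166). These are descriptions over 6 libraries that share the diet contrast.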
